A study of Xenopus laevis with 32 samples.

Results

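The B-type cyclin messages of the frog Xenopus laevis were followed through oocyte maturation in 6 gene rows. They were chosen by name as every L, S or numbered copy of ccnb1 or ccnb2, without ccnb1ip1. They are ccnb1.L, ccnb1.S, ccnb1.2.L, ccnb1.2.S, ccnb2.L and ccnb2.S, 6 of the 18118 gene names in the tables analysed. The letters L and S mark the homeologs, the copies of a gene on the long and short chromosome sets of this tetraploid frog. Polysome shares were listed for 4 of the 6 rows among 6497 genes, the ccnb1.2 and ccnb2 pairs. Shares of ccnb1.L and ccnb1.S were not analysed here. RNA levels were listed for 6 of the 6 rows among 11765 genes, and poly(A) sites for 5 of them among 13216 gene names, ccnb2.S not being analysed there.

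B-type cyclins are the regulatory subunits of CDK1, and together they form M-phase promoting factor, the kinase that drives cells into meiosis and mitosis. A stage VI oocyte is arrested in prophase of the first meiotic division and holds much of its cyclin B mRNA in a masked form with a short poly(A) tail. Progesterone starts maturation, during which such masked messages can gain longer tails and enter polysomes, and newly made cyclin B replaces the protein destroyed by the anaphase-promoting complex between the meiotic divisions.

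Oocytes were taken at 5 stages: stage VI without progesterone, 90 minutes after progesterone (PG90), meiosis I (MI), interkinesis and meiosis II (MII). Extracts were run on sucrose gradients, and RNA selected with oligo(dT) from free ribonucleoprotein (mRNP), monosome and polysome fractions gave 30 libraries, 2 for each stage and fraction. A further 2 lanes mapped 3′ ends in stage VI oocytes by PAS-seq. Each stage has 1 column in a column set x and 1 in a column set y, treated here as 2 replicates and not matched to numbered libraries.

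The labels do not say whether the sets came from separate frogs, so p-values measure only the spread between these columns. The depth behind shares and levels is unknown, and how reads were assigned between near-identical L and S copies is not stated, so the separation of homeologs is uncertain. Of 12 oocyte marker symbols, 12 were listed in the level table, against 2 of 10 for follicle and other ovarian somatic cells and 0 of 5 for blood. The follicle list's rows were cyp17a1.L, at 44.6 to 49.9 in set x and 8.36 to 13.5 in set y, and vim.L, at 22.2 to 69.4 and 2.22 to 22.0. Whether these 2 rows mark such cells here or come from the oocyte itself was not tested. The part of follicle and other somatic cells in the results was not tested either.

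The polysome share of the cyclin B messages was higher at MII than at stage VI in every row and in both column sets, while the median gene's share was lower. The clearest case was ccnb1.2.L, a row of cyclin B1, with shares of 0.517 in x and 0.685 in y at MII, against 0.257 and 0.227 at stage VI. Its homeolog ccnb1.2.S had shares of 0.437 and 0.681 at MII, against 0.275 and 0.250 at stage VI. In both rows the lower MII column lay well above the higher stage VI column.

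Cyclin B2 activates CDK1 as cyclin B1 does, and its rows likewise had their highest mean share at MII. Shares of ccnb2.L were 0.429 and 0.719 at MII, against 0.346 and 0.276 at stage VI. Shares of ccnb2.S were 0.516 and 0.629 at MII, against 0.364 and 0.275 at stage VI. The groups did not overlap in these rows either, although the x columns of ccnb2.L lay close together. In all, 4 of 4 rows had both MII columns above both stage VI columns, a pattern shown by 9.37% of all genes.

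The test was made on log2(share / (1 − share)), called log2 odds, with limma across all genes and Benjamini-Hochberg adjustment. With stage as the only term, ccnb1.2.L rose by 2.26 log2 odds (SE 0.52, limma adjusted p = 0.0454). The changes were 1.86 (SE 0.55, limma adjusted p = 0.0616) for ccnb1.2.S, 1.62 (SE 0.56, 0.0840) for ccnb2.L and 1.53 (SE 0.49, 0.0695) for ccnb2.S. Thus 1 of 4 rows passed the threshold of 0.05, where 0.554% of all genes passed upward and 3.82% downward. With each column centred on its median, again 1 of 4 rows passed, and the split over all genes turned, to 1.65% upward and 0.308% downward. An unadjusted p under 0.05 was found in 4 of 4 rows, against 32.7% of all genes in either direction. The median change of the 4 rows was 1.74, against -0.57 for all genes.

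Columns of the same set deviated together, and with the column set added as a replicate block 4 of 4 rows rose. The limma adjusted p was then 0.0208 for ccnb1.2.L, 0.0367 for ccnb1.2.S, 0.0496 for ccnb2.L and 0.0391 for ccnb2.S. In that fit 3.36% of all genes were called higher and 22.1% lower. This split also turned with median-centring, to 6.66% higher and 1.68% lower, with 4 of 4 rows still higher. The calls rest on few columns, and without the block that of ccnb1.2.L was lost when some columns were left out in turn. Such fits leave 1 column at a stage, and the loss of calls was not particular to this row. In the fit without the block, the median change of the 4 rows was 1.90 without stage VI x, against -0.54 for all genes. Without stage VI y it was 1.58, against -0.56. Leaving out MII x gave 2.55, against -0.42, and leaving out MII y gave 1.16, against -0.68. Without MII y the change was 1.75 for ccnb1.2.L, 1.13 for ccnb1.2.S and 0.74 for ccnb2.L.

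**Figure D1:**
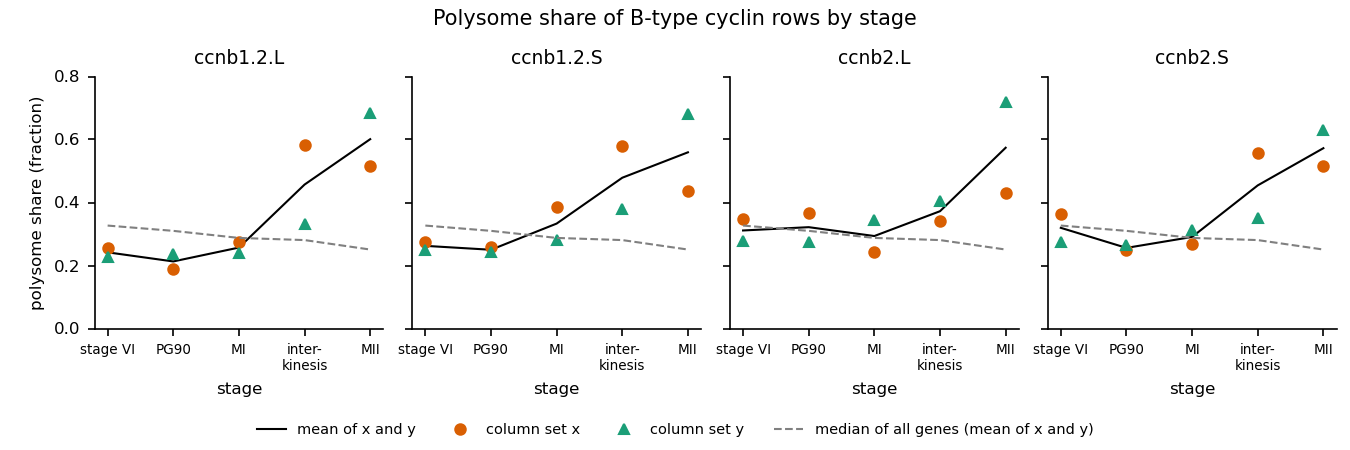
Polysome share (fraction) of the 4 B-type cyclin rows at each stage, with column set x as circles, column set y as triangles, their mean as a line and the median of all genes as a dashed line. The MII points of ccnb1.2.L, at 0.517 and 0.685, lie above its stage VI points at 0.257 and 0.227, and the dashed median runs downward.

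Ranked by share among all genes, the cyclin rows stood near the top at MII. Among the 6497 genes, the percentile of ccnb1.2.L by share was 96.4 in x and 98.1 in y at MII, against 18.0 and 2.65 at stage VI. For ccnb1.2.S it was 92.8 and 98.0 at MII, against 25.4 and 8.02 at stage VI. Both cyclin B1 rows therefore stood in the upper part of the list at MII and in its lower part at stage VI, in each set.

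The cyclin B2 rows started higher. The percentile of ccnb2.L was 92.4 in x and 98.9 in y at MII, against 56.0 and 20.5 at stage VI. That of ccnb2.S was 96.4 and 96.1 at MII, against 63.4 and 20.0 at stage VI. In set x these rows lay above the middle of the list before progesterone, and in set y below it.

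**Figure D2:**
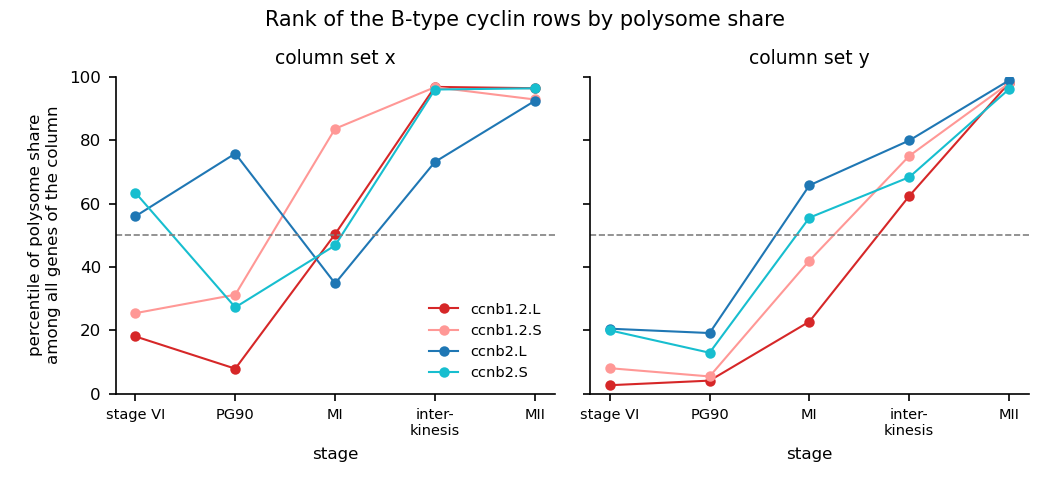
Percentile of each B-type cyclin row by polysome share among the 6497 genes of a column (y axis, %) at each stage, for column set x on the left and y on the right, with a dashed line at the middle. At MII the rows lie between 92.4 and 98.9 in both sets, and at stage VI between 2.65 and 63.4.

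The timing differed between the column sets. Along stage VI, PG90, MI, interkinesis and MII, the share of ccnb1.2.L in set x was 0.257, 0.190, 0.275, 0.582 and 0.517. In set y it was 0.227, 0.236, 0.239, 0.331 and 0.685. In both sets the share thus stayed low through MI. The high values of set x were present by interkinesis, whereas in set y the share was highest at MII.

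The homeolog ccnb1.2.S followed a like course, though in set x it was already higher at MI. Its shares were 0.275, 0.257, 0.385, 0.579 and 0.437 in set x and 0.250, 0.242, 0.281, 0.378 and 0.681 in set y. For ccnb2.S the shares were 0.364, 0.248, 0.267, 0.559 and 0.516 in set x and 0.275, 0.264, 0.314, 0.350 and 0.629 in set y. In set x these 2 rows, like ccnb1.2.L, were higher at interkinesis than at MII. The row ccnb2.L did not show this early high value, with 0.346, 0.367, 0.243, 0.341 and 0.429 in set x and 0.276, 0.276, 0.344, 0.404 and 0.719 in set y.

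Measured within a set, the log2 odds change at MII was smaller in x than in y for 4 of 4 rows. It was 1.63 in x and 2.89 in y for ccnb1.2.L, where 74 genes had a larger change in x and 19 in y. It was 1.04 and 2.68 for ccnb1.2.S (255 genes larger in x and 31 in y) and 0.51 and 2.74 for ccnb2.L (582 and 27). For ccnb2.S it was 0.90 and 2.16 (316 and 121). The median change of all genes was also lower in x, at -0.69, than in y, at -0.40. The difference between sets was not tested, since each set has a single column per stage.

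No row was called at an earlier stage. At interkinesis the change from stage VI was 1.38 for ccnb1.2.L (limma adjusted p = 0.258), 1.36 for ccnb1.2.S (0.279), 0.40 for ccnb2.L (0.716) and 0.82 for ccnb2.S (0.392). Of these, 2 of 4 rows had an unadjusted p under 0.05, against 16% of all genes. With the replicate block 0 of 4 rows were called, and 0 of all 6497 genes. Leaving out 1 column moved the change between 0.64 and 2.13 for ccnb1.2.L, 0.78 and 1.95 for ccnb1.2.S, 0.16 and 0.63 for ccnb2.L, and 0.21 and 1.44 for ccnb2.S. Both interkinesis columns lay above both stage VI columns in 2 of 4 rows, the ccnb1.2 pair, against 12.4% of all genes. At PG90 the changes lay between -0.44 and 0.07 and at MI between -0.19 and 0.48, with 0 of 4 rows called and 0 of 4 with an unadjusted p under 0.05 in each.

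At MI 1 of 4 rows, ccnb1.2.S, had both columns above both stage VI columns, against 12.3% of all genes. At PG90 0 of 4 rows did, against 7.71% of all genes, and 1 row, ccnb2.S, had both columns below, against 21.1%. The background was 0% of all genes called with limma at PG90, MI and interkinesis, with 59, 759 and 1041 genes at an unadjusted p under 0.05. The design therefore called nothing at these stages in any gene.

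MII was also set against MI. The change was 2.15 for ccnb1.2.L, 1.38 for ccnb1.2.S, 1.76 for ccnb2.L and 1.72 for ccnb2.S, with limma adjusted p between 0.342 and 0.450. All 4 had an unadjusted p under 0.05, against 9.97% of all genes, but 0 of 4 rows, and 0% of all genes, passed the adjusted threshold. With the replicate block the limma adjusted p lay between 0.147 and 0.243, again with 0 of 4 rows, and 0 of all 6497 genes, called. Leaving out 1 column moved the change between 1.63 and 2.66 for ccnb1.2.L, 0.65 and 2.11 for ccnb1.2.S, 0.87 and 2.64 for ccnb2.L, and 1.38 and 2.05 for ccnb2.S. For MII against interkinesis 0 of 4 rows and 0% of all genes were called, and 0 of 4 rows had an unadjusted p under 0.05, against 4.46% of all genes.

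The L and S copies were compared within each column. The share of ccnb1.2.L differed from that of ccnb1.2.S by a mean of -0.18 log2 odds (SD 0.33, n = 10 columns), with the L row higher in 3 of 10, and the exact sign-flip permutation test, two-sided, gave p = 0.131. For ccnb2 the mean difference was -0.0059 (SD 0.59, n = 10), with L higher in 6 of 10 columns and an exact p of 0.981. Adjusted over the 5 homeolog tests made, these were 0.218 and 0.981. The columns of a stage and the stages of a set are not independent, and a p above the threshold does not show that the copies are alike.

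The RNA level of the cyclin B messages was lower at MII than at stage VI in 6 of 6 rows of set y. In set x it was lower in 4 of 6 rows, and no row passed the test. The median gene's ratio of MII to stage VI was 1.05 in x and 1.04 in y. A ratio lower than that of a cyclin row was seen in 0.646% to 8.34% of all genes in y. In x the range was 9.55% to 70.7%. The share of all genes that were lower in each set by itself was not counted. Levels are deposited values of unstated unit and length scaling, so they are compared within a gene and a set only. RNA was selected by oligo(dT), so fewer molecules and shorter poly(A) tails cannot be told apart, nor can fewer cells of a type and less RNA per cell in a bulk extract. Both limits hold for the shares as well. At MII the level was below stage VI in both sets for 4 of 6 rows, against 29.7% of all genes, the ccnb1.L, ccnb1.S, ccnb2.L and ccnb2.S rows.

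The lowest ratio belonged to ccnb2.S. Its level along stage VI, PG90, MI, interkinesis and MII was 9889.5, 9055, 6151, 5548 and 5682 in set x and 875, 607, 332, 127 and 72.3 in set y. At MII this was 0.575 of the stage VI level in x and 0.0827 in y. In set y only 76 of the 11765 genes had a lower ratio at MII, or 0.646%, and in set x 9.55% did. In both sets the level was lower at each step up to interkinesis, and the ratios of the sets lay far apart.

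For the homeolog ccnb2.L the levels were 637, 648, 426, 413 and 571 in set x and 67.2, 55.0, 26.5, 15.0 and 11.1 in set y. Its MII level was 0.895 of stage VI in x and 0.166 in y. In x the row was low at MI and interkinesis and near its stage VI value at MII, while in y it was lowest at MII.

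The cyclin B1 rows with no polysome share, ccnb1.L and ccnb1.S, gave levels of 643 and 684 in set x at MII, against 924 and 765 at stage VI. In set y they were at 27.5 and 36.8 at MII, against 72.6 and 128 at stage VI. The MII ratios were 0.696 in x and 0.379 in y for ccnb1.L, and 0.894 and 0.286 for ccnb1.S. Both rows were thus lower at MII in each set, and more so in y.

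The ccnb1.2 pair was lower at MII in set y alone. The level of ccnb1.2.L in set x was 948 at both MII and stage VI. In set y it was 41.9 at MII against 197 at stage VI, a ratio of 0.213. For ccnb1.2.S the ratio was 1.28 in x, with 1175 at MII against 916 at stage VI, and 0.367 in y, with 46.2 against 126. In y both rows had first stood higher at PG90, at 305 for ccnb1.2.L and 180 for ccnb1.2.S (ratios of 1.55 and 1.43).

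**Figure D3:**
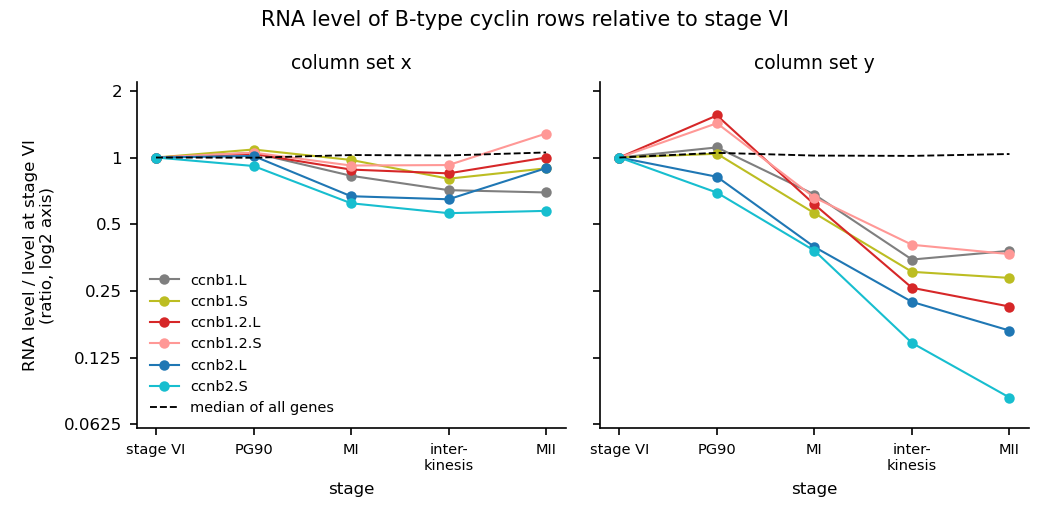
RNA level of the 6 B-type cyclin rows divided by the level at stage VI of the same column set (log2 axis) at each stage, for column set x on the left and y on the right, with the median of all genes as a dashed line. At MII the ratios run between 0.575 and 1.28 in x and between 0.0827 and 0.379 in y, where the median gene is at 1.05 and 1.04.

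With the column set as a block, limma called 0 of 6 rows at MII, where 1.33% of all genes were called lower. The log2 change was -2.20 for ccnb2.S (SE 0.67, limma adjusted p = 0.0926), -1.38 for ccnb2.L (0.161), -0.96 for ccnb1.L (0.103) and -0.98 for ccnb1.S (0.186). It was -1.12 for ccnb1.2.L (0.304) and -0.54 for ccnb1.2.S (0.516). Of these 3 of 6 had an unadjusted p under 0.05, against 30.4% of all genes in either direction. The median of the 6 rows was -1.05, against 0.07 for all genes. Without MII y the change of ccnb2.S was -1.18 and that of ccnb1.2.S was 0.20, and without MII x they were -3.21 and -1.29. In the same fits, without MII y and without MII x, the change was -0.21 and -2.02 for ccnb1.2.L, -0.49 and -2.27 for ccnb2.L, -0.44 and -1.52 for ccnb1.S, and -0.68 and -1.24 for ccnb1.L.

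At least 2-fold lower levels in both sets at MII were seen in 0 of 6 rows, against 3.37% of all genes. The level was below stage VI in both sets in 6 of 6 rows at MI, against 29.4% of all genes, and in 6 of 6 rows at interkinesis, against 33.6%. At PG90 1 of 6 rows, ccnb2.S, was below in both, against 24.4%. Limma called 0 of 6 rows at PG90, MI and interkinesis, where 0% of all genes were called lower, and 0, 0 and 3 of the 6 had an unadjusted p under 0.05, against 3.27%, 14.4% and 23.7% of all genes.

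The homeologs of cyclin B2 were also compared in level relative to stage VI. Over the 8 later-stage values, log2(level / stage VI) was higher in ccnb2.L than in ccnb2.S by a mean of 0.38 (SD 0.34), in 8 of 8 values. The exact sign-flip permutation test gave p = 0.00781, the smallest it can give at this n, and 0.0391 after adjustment over the 5 homeolog tests. The 8 values share the 2 stage VI columns, 1 for each set, and columns of a set deviate together. They are therefore fewer than 8 independent observations, and the p is too small. Leaving out any later stage, which leaves fewer values, gave an adjusted exact p between 0.0781 and 0.156. For ccnb1.2 the L row was lower by a mean of -0.25 (SD 0.32), with L higher in 1 of 8 and an adjusted exact p of 0.117, and for ccnb1 the mean was 0.018 (SD 0.27, 4 of 8, adjusted exact p of 0.981).

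Share and level can be multiplied to give the RNA on polysomes relative to stage VI, if x and y name the same series in both tables. The product also requires that the share is a fraction of the total that the level measures, and that levels compare between stages. None of these conditions is stated. At MII the product was 2.01 times that of stage VI in x and 0.642 times in y for ccnb1.2.L, and 2.04 and 0.999 times for ccnb1.2.S. It was 1.11 and 0.431 times for ccnb2.L and 0.815 and 0.189 times for ccnb2.S. The higher share at MII was thus not matched by a higher product in set y in any of the 4 rows. In set x the product was higher for ccnb1.2.L, ccnb1.2.S and ccnb2.L and lower for ccnb2.S, so the sets differed. How often either pattern occurs among all genes was not counted. These products are a description without a test.

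Other genes of M-phase control were read from a list of 44 symbols, of which 16 were listed in the share table in 25 rows. With stage as the only term 0 of 25 rows were called at MII, and 6 of 25 had an unadjusted p under 0.05, no larger a share than the 32.7% of all genes. The median change was -0.11 log2 odds, against -0.57 for all genes, and 18 of 25 rows lay above that median. With the replicate block 5 of 25 rows rose and 1 fell, against 3.36% and 22.1% of all genes. With median-centring as well, 5 rose and 0 fell, against 6.66% and 1.68%.

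Of the rows that rose with the block, 4 belong to ube2c and plk1. For ube2c, the ubiquitin-conjugating enzyme that works with the anaphase-promoting complex on B-type cyclins, the change was 2.26 for ube2c.S (limma adjusted p = 0.0185) and 1.71 for ube2c.L (0.0317). For plk1, the Polo-like kinase of M-phase entry and exit, it was 1.87 for plk1.L (0.0203) and 1.27 for plk1.S (0.0471). The remaining row was ccne1.S, for cyclin E1, a partner of CDK2, with 1.40 (0.0477).

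The course of plk1 was earlier. The share of plk1.L in set x was 0.313, 0.511, 0.656, 0.705 and 0.662 from stage VI to MII, and in set y 0.300, 0.300, 0.558, 0.501 and 0.569. Its share was already high at MI in both sets, when the share of ccnb1.2.L was 0.275 and 0.239. The difference in timing between these genes was not tested.

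The row that fell with the block was ccnb3.L, for cyclin B3, a distant relative of the B1 and B2 cyclins. Its share was 0.139 in x and 0.133 in y at MII, against 0.275 and 0.249 at stage VI, a change of -1.17 (limma adjusted p = 0.0251 with the replicate block and 0.0659 without it). With block and median-centring it was -0.63 (limma adjusted p = 0.207), no longer called. For ccnb3.S the share was 0.157 and 0.131 at MII, against 0.170 and 0.268 at stage VI, a change of -0.71 (limma adjusted p = 0.261). With block and median-centring the ccnb3.S change was -0.17 (limma adjusted p = 0.799). Its percentile by share was 13.1 in x and 2.62 in y at MII, against 1.45 and 15.6 at stage VI. Both cyclin B3 rows thus had lower MII shares in each set, as had the median gene, where the B1 and B2 rows had higher ones. Higher MII shares in both sets were also seen in the cyclin A rows ccna2.L and ccna1.S, without a call. For ccna2.L they were 0.373 and 0.342, against 0.334 and 0.314 at stage VI. For ccna1.S they were 0.410 and 0.339, against 0.353 and 0.241. The ccna1.L share was lower in x (0.230 against 0.255) and higher in y (0.341 against 0.255). The median share was 0.233 in x and 0.268 in y at MII, against 0.332 and 0.321 at stage VI.

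The catalytic partner of these cyclins, cdk1, was not called. Its cdk1.L row had shares of 0.128 and 0.371 at MII, against 0.419 and 0.383 at stage VI, a change of -1.19 (limma adjusted p = 0.187). For cdk1.S the change was -0.70 (limma adjusted p = 0.284), where the median of all genes was -0.57. With block and median-centring the change was -0.65 for cdk1.L (limma adjusted p = 0.406) and -0.16 for cdk1.S (0.808). The lower share of cdk1.L was seen mainly in set x.

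**Figure D4:**
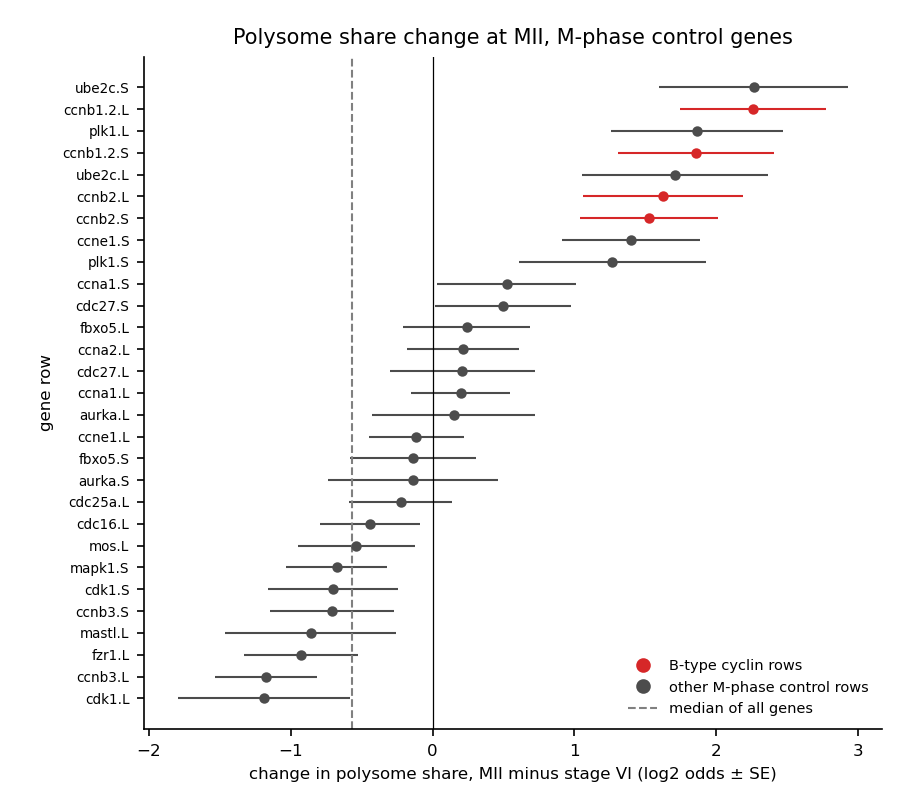
Change in polysome share at MII minus stage VI (log2 odds, points, with bars of 1 SE from the limma fit with stage as the only term) for the 4 B-type cyclin rows in red and 25 rows of other M-phase control genes in grey, with the median of all genes as a dashed line. The cyclin rows lie between 1.53 and 2.26, and ccnb3.L at -1.17 and cdk1.L at -1.19 are at the bottom.

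Of the same 44 symbols, 35 were listed in 55 rows with an RNA level. At MII 0 rows were called higher, against 72 of all 11765 genes, and 1 was called lower, against 1.33% of all genes. These counts are near those of all genes and show nothing particular to the list. An unadjusted p under 0.05 was found in 16 of 55 rows, a share near the 30.4% of all genes. The row that fell was ccna2.L, for cyclin A2, a CDK partner of S phase and early M phase. Its level was 146 in x and 11.2 in y at MII, against 351 and 44.7 at stage VI, a log2 change of -1.63 (SE 0.24, limma adjusted p = 0.0475). The other cyclin A rows were also lower, without passing the threshold. Their changes were -1.33 for ccna2.S (limma adjusted p = 0.0514), -1.33 for ccna1.L (0.0718) and -1.46 for ccna1.S (0.0692).

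The profiles of the 4 cyclin rows over the 10 share columns, each centred on its column's median, were alike, with Pearson's r between 0.794 for ccnb1.2.S with ccnb2.L and 0.982 for ccnb1.2.L with ccnb2.S. The rows are read from the same columns, which share stages and sets, and the values are a description. The 5 other genes with the highest r with the mean cyclin profile were birc5.1.S at 0.995, Xelaev18010928m at 0.994, Xelaev18002144m at 0.981, mettl14.L at 0.981 and ccne1.S at 0.979. The gene birc5.1 encodes survivin, of the chromosomal passenger complex, and mettl14 a subunit of the RNA N6-methyladenosine writer. The 2 Xelaev identifiers carry no gene name in the tables used here.

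The nearest profile, birc5.1.S, had shares of 0.355, 0.313, 0.331, 0.593 and 0.554 in set x and 0.324, 0.297, 0.312, 0.393 and 0.764 in set y. Like ccnb1.2.L it was high at interkinesis in x and not until MII in y. The share of ccne1.S in the same order was 0.321, 0.259, 0.325, 0.534 and 0.452 in x and 0.265, 0.261, 0.275, 0.314 and 0.590 in y. These rows thus show the cyclins' difference between the sets, which the measure of likeness includes.

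Poly(A) sites, where the 3′ end is cut and the tail added, were mapped in stage VI oocytes alone, so they are not compared between stages. Reads of both lanes stand in 1 column, and coordinates follow the deposited table, whose genome build is not given in the sources used here. Of the 5 cyclin genes listed, 4 had most reads at a single site, and so had 5 of 5 when sites under 10 reads were left out. The row of ccnb1.2.L had 676 reads at 10 sites, of which 564 lay at base 83489680 of chromosome 4L on the plus strand, or 83.4% (Wilson 95% interval 80.4 to 86.0). Its next site, with 28 reads, lay 113 nt upstream.

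For ccnb1.2.S, 402 of 508 reads, or 79.1% (75.4 to 82.4), lay at base 67605431 of chromosome 4S on the plus strand, and the gene had 8 sites. For ccnb1.L, 266 of 354 reads, or 75.1% (70.4 to 79.4), lay at base 189840291 of chromosome 1L on the minus strand, and the gene had 10 sites. For ccnb2.L, 163 of 204 reads, or 79.9% (73.9 to 84.8), lay at base 89249505 of chromosome 3L on the plus strand, and the gene had 6 sites. The interval of ccnb1.2.L overlaps those of ccnb1.2.S and ccnb2.L and not that of ccnb1.L. The intervals cover counting error of reads only, since both lanes stand in 1 column and reads were counted without molecular identifiers.

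The lowest share was that of ccnb1.S, the short-chromosome copy of ccnb1. Of its 237 reads at 12 sites, 107, or 45.1% (38.9 to 51.5), lay at base 158643003 of chromosome 1S on the minus strand. The other 130 reads, or 54.9%, lay upstream, the next site holding 29 reads, or 12.2%, at 2759 nt and the farthest lying at 10560 nt. Sites were taken as deposited, and whether the upstream sites of any of these genes are true 3′ ends was not tested. The second site of ccnb1.L lay at a like distance, 2749 nt upstream, with 20 reads, or 5.65%. The interval of ccnb1.S does not overlap that of ccnb1.L, its homeolog. When only sites of at least 10 reads were kept, the share at the main site was 53.5% for ccnb1.S and 86.6% for ccnb1.L.

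Among the 1584 genes with at least 100 reads, the median gene had 7 sites and 52.3% of its reads at the most used one. A lower share at the most used site was seen in 79.0% of them compared with ccnb1.2.L, 74.7% with ccnb1.2.S, 71.1% with ccnb1.L and 75.9% with ccnb2.L, and in 42.1% with ccnb1.S. The concentration of the 4 rows was therefore high but not rare.

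**Figure D5:**
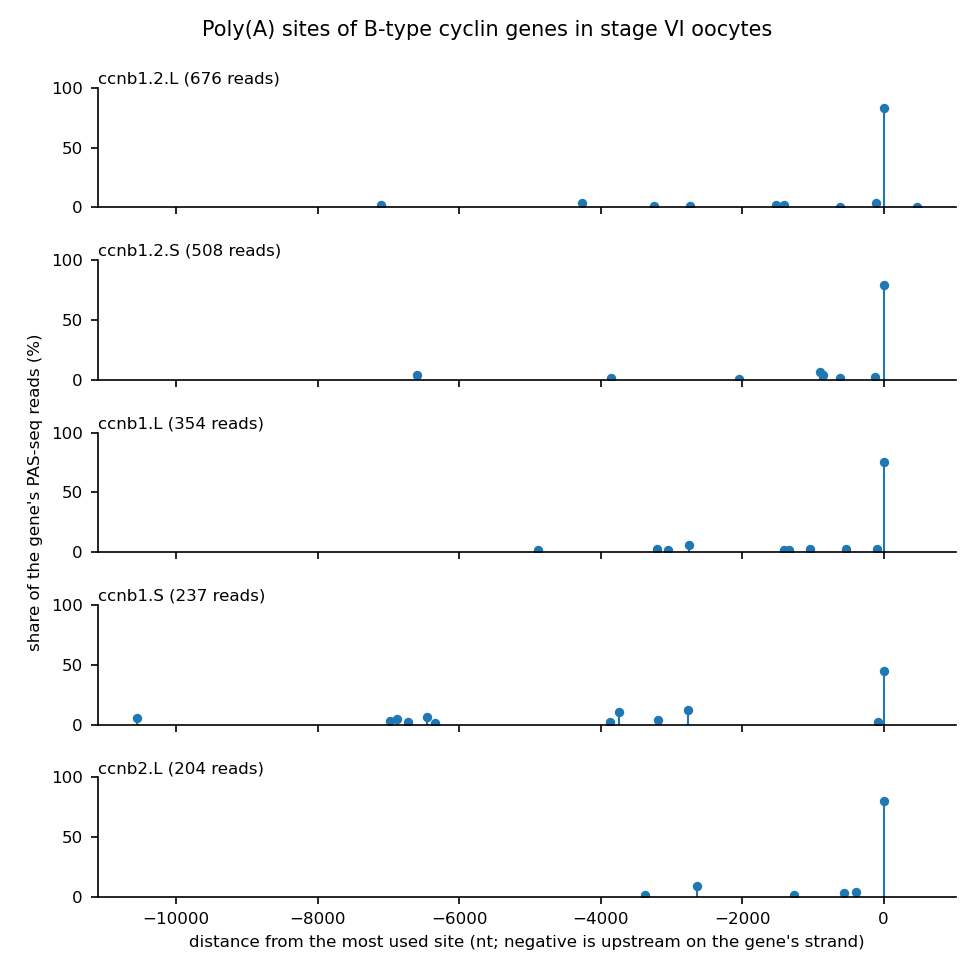
Share of a gene's PAS-seq reads (%, y axis) at each poly(A) site against the distance from the most used site (nt, negative upstream on the gene's strand) for 5 B-type cyclin genes in stage VI oocytes. The most used site holds 75.1% to 83.4% of reads in 4 genes and 45.1% in ccnb1.S, whose other reads lie at up to 10560 nt upstream.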

How the data were processed

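Per the submitters' processing notes, Bowtie, Bowtie2, TopHat2 and Cufflinks were used. Their versions and roles, the genome build and the scaling are not given in the sources used here. Polysome shares are a fraction per gene, per the file headers. RNA levels deposited by the authors, all above 1, were read as a score of unstated unit. Poly(A) site values are a read count in 1 column for both lanes, per the file headers. The number of per-sample columns left unmapped was 0.

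Log2(share / (1 − share)) of 6497 genes was fitted with limma-trend (limma 3.58.1, R 4.3.3) over 10 columns with stage as the term, with Benjamini-Hochberg adjustment over all genes of a contrast. Residual degrees of freedom were 5 (prior 6.83). Deviations from the stage means of columns with the same suffix correlated in each of 10 stage pairs, at r between 0.173 and 0.451 for shares and between 0.655 and 0.738 for levels, so the sets pair the columns. Blocked fits stand beside the results they change. Log2 levels of 11765 names were fitted with the set as a block, leaving out 178 names listed more than once. Fits were run on simulated data with independent noise and no column-set effect, which does not give their error rate in these data.

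Exact tests and Wilson 95% intervals used SciPy 1.17.1. Names of 6 of 6 members matched a RefSeq table of another assembly, used for names only. Genes were named if they were members, passed the test in the M-phase list or were among the 5 most like profiles. Shown as context were cdk1, the levels of the other cyclin A rows and the cyclin A, ccnb3, birc5.1.S and ccne1.S shares. The members and lists were chosen with earlier results of these data known. Alternatives were quantile normalization, median-centring, the untransformed share, a constant prior variance, columns of the 2 stages only, a mean level of at least 10, a pseudocount of 1, leaving out columns, sites with at least 10 reads and sites joined when 50 nt or less apart.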

Additional observations from a re-analysis of the deposited data

How the results depend on the processing

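Share changes of 4 cyclin rows at MII were positive under every alternative run. Adding the replicate block moved the genes called at MII to 1654 from 284, and brought past the threshold ccnb1.2.S (1.86), ccnb2.L (1.62) and ccnb2.S (1.53). With block and median-centring, chosen after seeing the data, 542 genes were called (433 higher, 109 lower, against 218 and 1436 with the block alone) and these rows stood at 2.40, 2.16 and 2.07. Quantile normalization called 54 genes (44 higher, 10 lower), median-centring 127 (107 higher, 20 lower, against 36 and 248 without it) and a constant prior variance 139. For MII against MI, the 2 stages' columns alone called 1 gene. Near 0, signs turned: ccnb1.2.S at PG90 was 0.019 with centring (with or without block), and at MI ccnb2.L was 0.14 and ccnb2.S 0.077 with centring, and 0.21 and 0.15 with quantile normalization, which gave ccnb2.L 0.026 for MI against PG90. The ccnb2 homeolog share difference was 0.0058 without stage VI and 0.11 without interkinesis. The ccnb2 level difference lost its call, by construction as fewer values remain, without PG90 (0.44), MI (0.48), interkinesis (0.37) or MII (0.23). Level calls at MII were 229, and 593 with a pseudocount, 0 with no replicate block, 505 with quantile normalization, 587 with centring (263 higher, 324 lower, against 72 and 157 without it) and 665 with a mean level of at least 10. At PG90 they were 1, and 2 with a pseudocount and 0 with no block. At MI they were 2, and 0 with no block. Other causes were not tested. Leaving out 1 column gave 0 to 106 share calls at MII, 0 to 3 for MII against MI and 0 to 3 at interkinesis, and level calls of 1 to 12 at PG90, of 2 to 9 at MI, of 0 to 5 at interkinesis and of 0 to 47 at MII. Leave-one-out share changes at MII ran from 1.75 to 2.77 for ccnb1.2.L, 1.13 to 2.59 for ccnb1.2.S and 0.74 to 2.51 for ccnb2.L. At MI they ran from -0.021 to 0.25 for ccnb1.2.L, between -0.49 and 0.22 for ccnb2.L, and between -0.48 and 0.10 for ccnb2.S. For ccnb2.L they ran from -0.24 to 0.37 at PG90 and -0.55 to 0.16 for MI against PG90, and for ccnb1.2.S from -0.23 to 1.22 for MII against interkinesis. Level changes at PG90 ran from -0.50 to 1.19 for ccnb1.2.L, -0.36 to 0.95 for ccnb1.2.S, -0.21 to 0.43 for ccnb1.L, -0.40 to 0.58 for ccnb1.S, between -0.76 and 0.50 for ccnb2.L, and between -1.06 and 0.40 for ccnb2.S. At MI they ran from -0.93 to 0.045 for ccnb1.2.L, -0.74 to 0.020 for ccnb1.2.S and -0.92 to 0.052 for ccnb1.S, and at MII from -1.29 to 0.20 for ccnb1.2.S. With at least 10 reads per site, the most used site held 86.2%, 86.6%, 53.5% and 90.1% of reads in ccnb1.2.L, ccnb1.L, ccnb1.S and ccnb2.L. Depth is unknown for shares and levels.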
